A study of Homo sapiens with 6 samples.

Results

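Genes for eukaryotic translation initiation factors were read out in RBE cells, an established human bile duct cancer line, in libraries labelled for a guide against the potassium channel gene KCNQ3 and in controls. Members were the rows whose symbol starts with EIF and a digit, without the EIF2AK kinases and EIF1AY. That left 51 of 16200 rows, and 50 genes once EIF3C and its near-identical copy EIF3CL were summed because they share reads. The 3 libraries labelled sgKCNQ3 were set against 3 control libraries labelled NC, all from the same line, with no other treatment named in the labels. Neither the kind of Cas protein behind the guide, nor whether the cells were a clone or a pool, nor whether libraries came from separate cultures is stated in the labels. The p-values therefore measure only the spread between these libraries, which may be technical. KCNQ3 mRNA itself was at 13.95, 13.06 and 11.95 CPM (counts scaled to library size) in sgKCNQ3, against 16.60, 16.23 and 16.11 CPM in NC, without overlap. Its log2 fold change was -0.33 (SE 0.0838, adjusted p 0.00433 by edgeR's quasi-likelihood test with Benjamini-Hochberg adjustment over all genes tested, the test behind every edgeR value below), but the call ended on log2(TPM + 1), where TPM is a level scaled to transcript length and library (-0.15, limma adjusted p 0.151, within 1.65e-04 to 0.174 over its alternatives). A mean is given with its SD over the 3 libraries of a group throughout.

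Initiation brings a ribosome, an initiator tRNA and an mRNA together at the start codon. The eIF2 complex carries the initiator tRNA to the small ribosomal subunit and is recharged by its exchange factor eIF2B, while eIF1, eIF1A and eIF5 govern how strictly the start codon is chosen. The eIF3 complex is the scaffold on the small subunit, and the eIF4 proteins bind the mRNA cap, unwind the leader and are held back by the eIF4E-binding proteins under mTOR control. The eIF5B protein joins the subunits, and eIF6 keeps the large subunit apart until it is mature.

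Total counts were 15685137 to 15722455 in sgKCNQ3 and 15601283 to 16089500 in NC. The biliary keratin KRT7 averaged 1439.6 ± 37.7 CPM in sgKCNQ3 and 1404 ± 17.7 CPM in NC, while ALB, PTPRC and PECAM1, defining markers of hepatocytes, leukocytes and endothelium, averaged 0.0417, 0.0632 and 0.357 CPM in sgKCNQ3 and 0.106, 0.0424 and 0.170 CPM in NC. Summed TPM of 6 biliary markers was 4612 to 4732 in sgKCNQ3 and 3992 to 4085 in NC. Of the 6, KRT8, KRT18 and SOX9 were called higher (edgeR log2 fold changes 0.28, 0.16 and 0.18), 50% beside 14.0% of all genes. KRT7, KRT19 and EPCAM were not called. The part of this shift in the biliary markers in the results below was not tested. Summed TPM of the hepatocyte list was 0.16 to 2.13 in sgKCNQ3 and 0.10 to 1.01 in NC, and of the fibroblast list 2.03 to 2.07 in sgKCNQ3 and 1.55 to 2.02 in NC. Summed TPM of the leukocyte list was at most 0.04 in sgKCNQ3 and 0.11 in NC, with CD3E and CD14 at 0 in sgKCNQ3.

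Log2 fold changes were mostly small, over the initiation factor genes as over all genes. More of the members called were lower than higher in sgKCNQ3. Of 49 members that passed the low-count filter, 14 were called at an adjusted p under 0.05, a share of 28.6%, beside 29.1% of all 12564 genes tested. Lower calls numbered 11 (22.4% of the members, beside 15.1% of all genes) and higher calls 3 (6.12%, beside 14.0% of all genes). The median log2 fold change was -0.06 over the members and -0.01 over all genes tested, and 35 of 49 members lay below 0, beside 51.6% of all genes. Groups did not overlap for 25 members (51.0%, beside 41.7% of all genes), and for each of the 14 called ones. The median size of the log2 fold change was 0.08 over the members and 0.12 over all genes tested. The share of all genes over 0.2 in size was not worked out. Of the members, 5 had a log2 fold change over 0.2 in size, EIF1 and EIF1B among them. The other 3 were weakly expressed and past no threshold, EIF5AL1 at -0.56 (SE 0.312, edgeR adjusted p 0.186), EIF4EBP3 at 0.34 (SE 0.182, edgeR adjusted p 0.169) and EIF2S3B at 0.24 (SE 0.210, edgeR adjusted p 0.426). In bulk RNA, fewer cells of a type and less RNA per cell cannot be told apart.

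**Figure D1:**
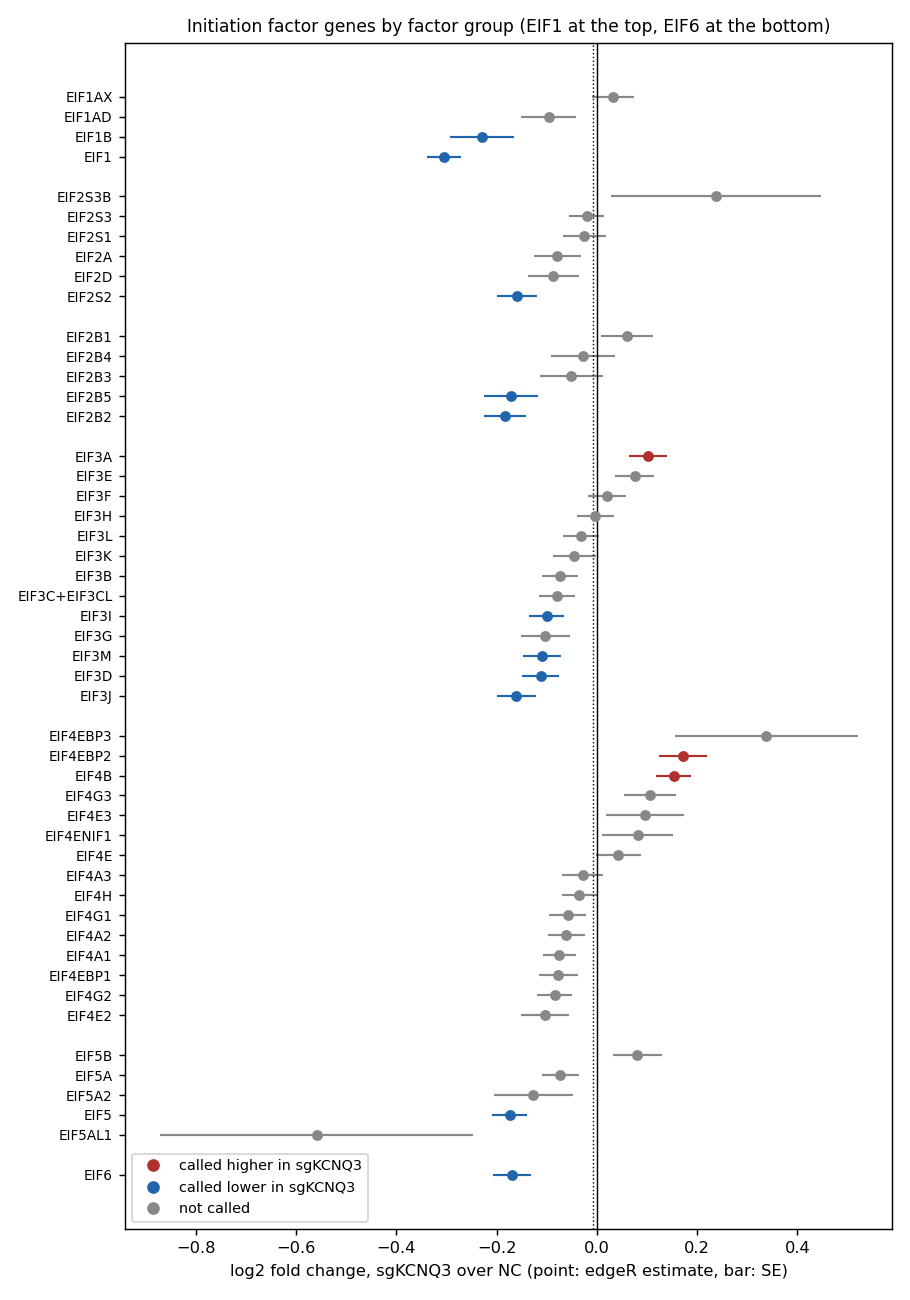
Log2 fold change of each tested initiation factor gene in sgKCNQ3 over NC (x axis), by factor group down the page, with points for the edgeR estimate, bars for its SE and a dotted line at the median of all genes. EIF1 is the lowest called member at -0.30 and EIF4EBP2 and EIF4B are the highest called ones at 0.17 and 0.15, while EIF5AL1 and EIF4EBP3 have wide bars and were not called.

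The balance of calls depended on the scale. With library size alone it was 5 higher and 7 lower, beside 18.5% and 10.2% of all genes. Once the dependence on transcript length and GC content was taken out of every library (the adjusted fit below), it was 1 higher and 13 lower, beside 10.5% and 16.1% of all genes. On log2(TPM + 1), where the median of all genes was 0.06, it was 7 higher and 2 lower (limma), beside 20.6% and 4.88% of all genes, and log2(TPM + 0.1) gave the same counts beside 20.4% and 4.85%. The members' median on log2(TPM + 1) was 0.02, which was 0.05 below that of all genes, as in the reported fit. In the adjusted fit the difference of the members' median from that of all genes was smaller (-0.0324, beside -0.0539 as reported). Leaving out each library in turn gave 2 to 5 higher and 7 to 13 lower, beside 10.2% to 13.5% and 10.6% to 13.9% of all genes, the most higher calls (5) coming without sgKCNQ3 replicate 3 and the fewest lower ones (7) without NC replicate 3. EIF1, EIF2S2 and EIF4B kept their call and direction in all 19 alternatives tried.

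Levels differed far more between factors than between groups. EIF4A1, the cap-complex helicase, was the most abundant at 1325 to 1394 TPM in sgKCNQ3 and 1342 to 1382 TPM in NC. EIF5A followed at 1188 to 1252 TPM in sgKCNQ3 and 1192 to 1237 TPM in NC, and EIF1 came next. The EIF3 subunits lay within a narrower band, from EIF3F at 65.0 to 69.8 TPM in sgKCNQ3 and 61.8 to 63.6 TPM in NC, up to EIF3K, the highest on average, at 404 to 436 TPM in sgKCNQ3 and 399 to 425 TPM in NC. EIF3F has a long reference transcript of 7540 bases, and per-length values depend on the transcript assumed. By CPM, which is not scaled to length, EIF3K was the lowest EIF3 subunit, averaging 126 CPM in sgKCNQ3 and 130 CPM in NC. The exchange factor subunits were scarce by comparison, the highest value of the 5 EIF2B genes being 60.6 TPM (EIF2B1, sgKCNQ3 replicate 2). EIF4E1B, an oocyte-type paralog of the cap-binding protein in mice, had 1 count in sgKCNQ3 replicate 2 and 0 in the other libraries and was not tested.

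**Figure D2:**
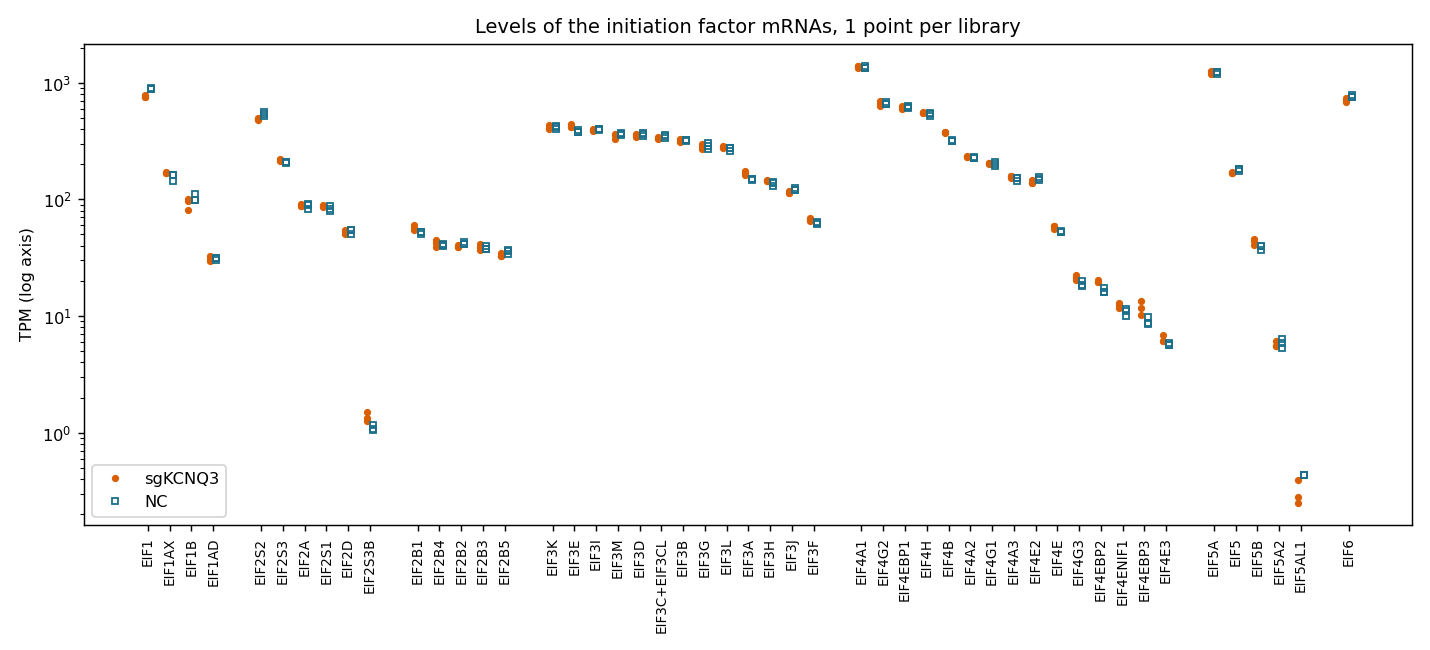
TPM (log axis) of each tested initiation factor gene, ordered by level within its factor group, with filled points for the 3 sgKCNQ3 libraries left of open squares for the 3 NC libraries. EIF4A1 and EIF5A are the most abundant members in every library, and the groups separate visibly for EIF1.

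EIF1 had the largest called change of the family. This gene, which encodes the factor that keeps the scanning ribosome open until a start codon is matched, lies at chr17:41688885-41692668 (GRCh38, plus strand, GENCODE release 29). EIF1 was at 967, 999 and 987 CPM in sgKCNQ3, against 1215, 1211 and 1222 CPM in NC. Every sgKCNQ3 library lay at 79.5% to 82.1% of the NC mean, and the NC libraries at 99.6% to 100.5% of it. EIF1 fell by 19.1% (log2 fold change -0.30, SE 0.0336, edgeR adjusted p 2.18e-07), and its log2 fold change over the alternatives ran from -0.31 to -0.22 (adjusted p 4.61e-18 to 0.00329).

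EIF1B, a paralog of EIF1 on chromosome 3, fell too, at 43.7, 36.3 and 41.7 CPM in sgKCNQ3 and 50.7, 46.4 and 45.6 CPM in NC. The groups did not overlap, and sgKCNQ3 replicate 2 was the lowest library (log2 fold change -0.23, SE 0.0643, edgeR adjusted p 0.00897). The call of EIF1B ended on log2(TPM + 1) (limma adjusted p 0.150, the largest of its alternatives, which ran from 9.07e-04), without sgKCNQ3 replicate 2 (edgeR adjusted p 0.0685 to 0.0690 for both left-out libraries that ended it) and without NC replicate 1. EIF1AX, whose product scans beside eIF1, was at 439 ± 14.2 CPM in sgKCNQ3 and 430 ± 27.1 CPM in NC and was not called (edgeR adjusted p 0.607). EIF1AD, named for an eIF1A domain, was at 48.0 ± 2.36 CPM in sgKCNQ3 and 51.3 ± 1.40 CPM in NC (SD, n = 3 each), also not called (edgeR adjusted p 0.192).

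The sequence just before the RefSeq start is shown for EIF1, for its paralog EIF1B and for EIF4B, the member that rose in every alternative, because these are the largest fall, its nearest relative and the steadiest rise. All are RefSeq promoters in GRCh38.p14, given 5′ to 3′ over 100 bases on the plus strand and ending at the base before the start that RefSeq gives. GENCODE release 29 starts EIF4B at 53006158 and EIF1B at 40309684, upstream of those starts, so these 2 windows lie within or reach into the genes as GENCODE draws them. They are chr17:41688785-41688884 for EIF1, chr3:40309607-40309706 for EIF1B and chr12:53006356-53006455 for EIF4B. Capitals mark CACGTG, the E-box that MYC-type factors can bind.
EIF1: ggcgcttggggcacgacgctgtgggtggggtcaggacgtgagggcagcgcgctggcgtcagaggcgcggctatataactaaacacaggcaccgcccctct
EIF1B: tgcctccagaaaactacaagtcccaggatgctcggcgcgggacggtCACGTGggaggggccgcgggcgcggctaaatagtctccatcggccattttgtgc
EIF4B: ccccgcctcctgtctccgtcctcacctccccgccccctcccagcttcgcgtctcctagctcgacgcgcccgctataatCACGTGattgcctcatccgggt
The E-box began 54 bases before the start in EIF1B, which fell, and 22 bases before it in EIF4B, which rose, and EIF1 had none in its window.

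Over 300-base RefSeq windows (250 bases before the start and 50 from it), 43 member genes had a promoter entry, 12 of them called. CACGTG, which reads the same on both strands, was in 11 of the 43 (25.6%), beside 8.77% of all 27305 genes with a window. CCGGAAG, the core that ETS factors recognise, was on either strand in 12 (27.9%, beside 12.2% of all genes), among them EIF2B2, EIF3I, EIF3M and EIF6, called lower, and EIF4EBP2, called higher. The NRF1 motif, searched on both strands, was in 9 (20.9%, beside 6.98% of all genes), EIF1 among them. The amino acid response element TGATGCAA was in 0 of these 43 windows, beside 1.08% of all genes. A pyrimidine start, meaning a C at the annotated start followed by 4 bases that are C or T, as in mRNAs whose translation follows mTOR, was present in 10 (23.3%, beside 5.14% of all genes), among them EIF4B, called higher, and EIF3D and EIF3M, called lower. These are matches of letters, and the called genes with the E-box, the ETS core or a pyrimidine start included both higher and lower ones. The 27305 genes include ones not expressed in these cells, and the shares over the tested genes alone were not worked out. The differences from all genes therefore cannot be read as particular to initiation factors.

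Within the complex that carries the initiator tRNA, EIF2S2 fell and the other subunits were not called. EIF2S2, the beta subunit, which eIF5 and eIF2B contact, was at 597, 653 and 583 CPM in sgKCNQ3 and 685, 675 and 687 CPM in NC. The groups did not overlap, and sgKCNQ3 replicate 2 came closest to NC (log2 fold change -0.16, SE 0.0392, edgeR adjusted p 0.00331). EIF2S1, the alpha subunit that stress kinases phosphorylate, was at 212 ± 8.42 CPM in sgKCNQ3 and 216 ± 11.9 CPM in NC, with a log2 fold change of -0.03 (edgeR adjusted p 0.693). EIF2S3, the gamma subunit that binds GTP and the tRNA, was at 434 ± 7.47 CPM in sgKCNQ3 and 440 ± 6.41 CPM in NC (-0.02, edgeR adjusted p 0.697). Its copy EIF2S3B took 0.438% to 0.497% of their summed counts in sgKCNQ3 and 0.378% to 0.406% in NC. EIF2A and EIF2D, which can deliver tRNA outside the eIF2 complex, had log2 fold changes of -0.08 and -0.09, past no threshold.

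The exchange factor eIF2B had 2 of its 5 subunit genes called, both lower, beside 15.1% of all genes called lower. EIF2B2, the beta subunit of the regulatory part, was at 96.8, 99.6 and 101 CPM in sgKCNQ3 and 113, 110 and 114 CPM in NC (log2 fold change -0.18, SE 0.0420, edgeR adjusted p 0.00191). EIF2B5, the catalytic epsilon subunit, was at 49.5, 47.9 and 46.1 CPM in sgKCNQ3 and 51.5, 55.5 and 54.7 CPM in NC (-0.17, SE 0.0536, edgeR adjusted p 0.0182). Neither overlapped between groups. EIF2B1, EIF2B3 and EIF2B4 had log2 fold changes of 0.06, -0.05 and -0.03 and were not called. The call of EIF2B5 held in 12 of 19 alternatives and ended without NC replicate 2, NC replicate 3 or sgKCNQ3 replicate 3 (edgeR adjusted p 0.0695 to 0.0883, within 0.0121 to 0.262 over its alternatives), and those of EIF2B2 and EIF2B5 ended on log2(TPM + 1) (limma adjusted p 0.155 and 0.262).

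The genes of the eIF3 scaffold had 4 of 13 called lower and 1 higher, 30.8% and 7.69% beside 15.1% and 14.0% of all genes, and a median log2 fold change of -0.07. In the adjusted fit 3 of the 13 were called lower and 0 higher, beside 16.1% and 10.5% of all genes. Among these was EIF3M, with a transcript longer than the deposited TPM took. EIF3J, a loosely bound subunit that sits near the mRNA channel, was at 161, 159 and 154 CPM in sgKCNQ3 and 175, 176 and 181 CPM in NC (log2 fold change -0.16, SE 0.0391, edgeR adjusted p 0.00303). EIF3D, the subunit with cap-binding activity of its own, was at 362, 348 and 345 CPM in sgKCNQ3 and 369, 392 and 378 CPM in NC (-0.11, edgeR adjusted p 0.0257). In each of these the groups did not overlap, but for EIF3D the gap between them was narrow. EIF3M, a core subunit, was at 304, 292 and 313 CPM in sgKCNQ3 and 325, 324 and 332 CPM in NC (-0.11, edgeR adjusted p 0.0290). EIF3I, a small peripheral subunit, was at 398, 393 and 391 CPM in sgKCNQ3 and 417, 429 and 420.2 CPM in NC (-0.10, edgeR adjusted p 0.0334). EIF3A, the largest core subunit, went the other way, at 671, 715 and 640 CPM in sgKCNQ3 and 625, 631 and 632 CPM in NC (log2 fold change 0.10, SE 0.0384, edgeR adjusted p 0.0464). Its groups were close, the lowest sgKCNQ3 library standing just above the highest NC library.

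Among the called subunits of eIF3, only EIF3J kept its call whichever library was left out. The call of EIF3A ended without any 1 library other than sgKCNQ3 replicate 3 (edgeR adjusted p 0.0841 to 0.127) and was gone in the adjusted fit (log2 fold change near 0, edgeR adjusted p 0.953, within 0.00562 to 0.953). EIF3I lost its call without any 1 library other than sgKCNQ3 replicate 2 (0.0547 to 0.105), EIF3D without NC replicate 2, NC replicate 3 or sgKCNQ3 replicate 3 (0.0799 to 0.110), and EIF3M without NC replicate 1, NC replicate 3, sgKCNQ3 replicate 1 or sgKCNQ3 replicate 2 (0.0587 to 0.134). EIF3D and EIF3I also lost theirs in the adjusted fit (edgeR adjusted p 0.128 and 0.375, within 0.0177 to 0.669 and 0.0310 to 0.750), and EIF3D, EIF3I, EIF3J and EIF3M on log2(TPM + 1) (limma adjusted p 0.669, 0.750, 0.208 and 0.365).

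The other eIF3 subunits stayed within 0.11 of 0 on the log2 scale. EIF3B, which binds RNA and contacts EIF3I, was at 516 ± 15.8 CPM in sgKCNQ3 and 543 ± 5.66 CPM in NC (-0.07, edgeR adjusted p 0.122). The sum of EIF3C and EIF3CL was 558 ± 21.4 CPM in sgKCNQ3 and 590 ± 6.40 CPM in NC (-0.08, edgeR adjusted p 0.101). Within that sum, EIF3CL was given 0.991%, 0.164% and 0.330% of the counts in sgKCNQ3, against 2.99%, 10.5% and 6.28% in NC. The assignment of reads to the copy thus differed by group and between libraries of a group, while the sum did not pass the threshold. EIF3E was at 421 ± 20.7 CPM in sgKCNQ3 and 399 ± 6.52 CPM in NC (0.08, edgeR adjusted p 0.145), and EIF3K, EIF3L, EIF3H and EIF3F lay between -0.04 and 0.02. EIF3F was called lower in the adjusted fit (-0.11, edgeR adjusted p 0.0221, within 0.0213 to 0.907). EIF3G, which helps scanning resume after short upstream frames in yeast, had a log2 fold change of -0.10 (edgeR adjusted p 0.119).

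**Figure D3:**
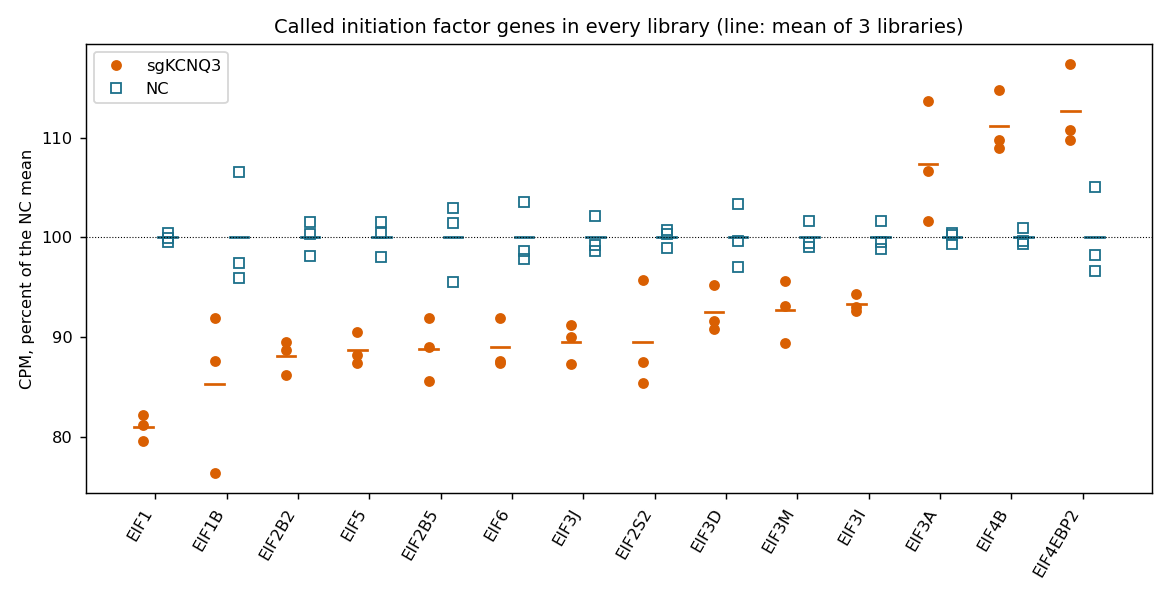
CPM of the 14 called members in every library, as percent of the NC mean (y axis, not starting at 0), with filled points for sgKCNQ3 left of open squares for NC and a line at each mean. EIF1 libraries of sgKCNQ3 sit at 79.5% to 82.1%, and the lowest EIF3A library of sgKCNQ3 at 102% lies just above the highest of NC at 100.4%.

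In the cap-binding and helicase group, 2 of 15 tested genes were called, both higher, 13.3% beside 14.0% of all genes. In the adjusted fit 1 of the 15 was called higher and 3 lower, beside 10.5% and 16.1% of all genes. EIF4B lies at chr12:53006158-53042209 (GRCh38, plus strand), and its product stimulates the helicase eIF4A and is phosphorylated by S6 kinase and by RSK, the kinase below ERK. EIF4B was at 832, 870 and 827 CPM in sgKCNQ3, against 756, 765 and 754 CPM in NC. All sgKCNQ3 libraries stood at least 109% of the NC mean (log2 fold change 0.15, SE 0.0348, edgeR adjusted p 0.00173), and the log2 fold change ran from 0.13 to 0.24 over the alternatives. EIF4EBP2, an inhibitor that holds eIF4E away from eIF4G, was at 87.8, 93.0 and 87.0 CPM in sgKCNQ3 and 77.9, 76.6 and 83.3 CPM in NC (log2 fold change 0.17, SE 0.0472, edgeR adjusted p 0.00753). The groups of EIF4EBP2 did not overlap. In the adjusted fit its log2 fold change was 0.06 and the call ended (edgeR adjusted p 0.317, within 0.00146 to 0.321).

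The remaining members of the cap complex were not called. EIF4A1 was at 1260.1 ± 11.5 CPM in sgKCNQ3 and 1327 ± 14.2 CPM in NC (log2 fold change -0.07, edgeR adjusted p 0.0935), and its paralog EIF4A2 at 233 ± 3.03 CPM in sgKCNQ3 and 244 ± 4.10 CPM in NC (-0.06, edgeR adjusted p 0.219), neither overlapping between groups. EIF4E, the cap-binding protein, was at 78.7, 76.4 and 78.4 CPM in sgKCNQ3 and 75.6, 76.0 and 75.0 CPM in NC, with a log2 fold change of 0.04 (SE 0.0447, edgeR adjusted p 0.500). It was called in the other direction in the adjusted fit (-0.11, edgeR adjusted p 0.0427, within 0.0427 to 0.662), which took its longest coding transcript, of 11523 bases. The deposited TPM took a shorter one for EIF4E, at 77.8 CPM and 57.8 TPM in sgKCNQ3, than for EIF4EBP2, at 89.3 CPM and 19.75 TPM. The adjusted fit took 7257 bases for EIF4EBP2, so the turned call of EIF4E rests on a length that the deposited TPM did not use. The scaffold genes EIF4G1 and EIF4G2 had log2 fold changes of -0.06 and -0.08 (edgeR adjusted p 0.243 and 0.0715), and both were called lower in the adjusted fit (-0.09 and -0.11, edgeR adjusted p 0.0448 and 0.00942). EIF4G2 encodes a scaffold that lacks the eIF4E-binding part. EIF4G3 was at 0.11 (edgeR adjusted p 0.130). EIF4H, the other helicase cofactor, was at 771 ± 19.3 CPM in sgKCNQ3 and 790 ± 23.1 CPM in NC (-0.03, edgeR adjusted p 0.499).

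Among the inhibitors, EIF4EBP1 was the abundant one, at 599, 605 and 637 TPM in sgKCNQ3 and 610, 627 and 619 TPM in NC, and was not called (log2 fold change -0.08, edgeR adjusted p 0.135). EIF4EBP2, which rose, lay far below it at 19.5 to 20.2 TPM in sgKCNQ3 and 15.9 to 17.4 TPM in NC. EIF4EBP3 was weakly expressed at 3.02 ± 0.429 CPM in sgKCNQ3 and 2.39 ± 0.231 CPM in NC and overlaps the readthrough locus ANKHD1-EIF4EBP3, so its value is uncertain. EIF4E2, a cap-binding paralog that represses translation with GIGYF2, had a log2 fold change of -0.10 (edgeR adjusted p 0.105). EIF4A3, a paralog of EIF4A1 in the exon junction complex, EIF4E3, a weak cap binder, and EIF4ENIF1, the eIF4E transporter, had log2 fold changes of -0.03, 0.10 and 0.08, past no threshold.

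EIF5 fell, while EIF5A and EIF5B were not called. EIF5, which triggers GTP hydrolysis by eIF2 when the start codon is found, lies at chr14:103333544-103345025 on the plus strand of GRCh38. It was at 568, 588 and 574 CPM in sgKCNQ3, against 661, 637 and 653 CPM in NC, with a clear gap between the groups. The log2 fold change was -0.17 (SE 0.0348, edgeR adjusted p 5.55e-04), and -0.27 in the adjusted fit (edgeR adjusted p 3.71e-07). On log2(TPM + 1) it was -0.08 and the call ended (limma adjusted p 0.131, the largest of its alternatives). EIF5A, which carries hypusine and helps elongation despite its name, was at 753 ± 32.9 CPM in sgKCNQ3 and 793 ± 13.4 CPM in NC (-0.07, edgeR adjusted p 0.140). Its copy EIF5AL1 took 0.0788% to 0.115% of their summed counts in sgKCNQ3 and 0.129% to 0.133% in NC. EIF5A2, the weakly expressed paralog of EIF5A, had a log2 fold change of -0.13 (edgeR adjusted p 0.240), and was called lower in the adjusted fit (-0.25, edgeR adjusted p 0.0115). EIF5B, which joins the subunits, was at 149 ± 11 CPM in sgKCNQ3 and 141 ± 5.87 CPM in NC (0.08, edgeR adjusted p 0.217).

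EIF6 fell by a similar amount, at 352, 352 and 370 CPM in sgKCNQ3, against 397, 417 and 393 CPM in NC. The groups did not overlap (log2 fold change -0.17, SE 0.0374, edgeR adjusted p 0.00139). The call of EIF6 ended in the adjusted fit (-0.08, edgeR adjusted p 0.0692) and on log2(TPM + 1) (limma adjusted p 0.116, the largest of its alternatives, which ran from 1.38e-04).

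Length and base composition moved with the fold changes. Over the 49 tested members, Spearman's rho of the log2 fold change with transcript length was 0.25 and with GC content -0.15, beside 0.32 and -0.26 over 12508 genes, a description across genes that share libraries. In the adjusted fit these were -0.33 with length and 0.36 with GC content over the members, so the adjusted values of the members still varied with both, in the other direction. EIF4B, EIF1, EIF1B, EIF2B2, EIF2B5, EIF2S2, EIF3J, EIF3M and EIF5 were called in both fits, while EIF3A, EIF4EBP2, EIF3D, EIF3I and EIF6 were called in the reported fit alone. For EIF3M, at 303 CPM and 349 TPM in sgKCNQ3, the adjusted fit took 5051 bases. It took 1756 bases for EIF4A1, at 1260 CPM and 1366 TPM. The deposited TPM thus took a shorter transcript for EIF3M. Its adjusted value (-0.20, edgeR adjusted p 1.41e-04) rests on a length that the deposited TPM did not use. EIF3F, EIF4E, EIF4G1, EIF4G2 and EIF5A2 were called lower in the adjusted fit alone. How the counting treated strand is not stated in the labels, and 5 of the 14 called members (EIF2S2, EIF3A, EIF3I, EIF3J and EIF3M) overlap a gene of the table on the opposite strand.

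Together the members made up 1.24% of all TPM in sgKCNQ3 and 1.25% in NC. Their summed level was 12464, 12365 and 12489 TPM in sgKCNQ3 and 12303, 12556 and 12625 TPM in NC, which overlapped (exact permutation test of 3 against 3 libraries, two-sided p 0.6). The log2 difference was -0.01 by TPM, but -0.0655 by CPM and -0.0653 by FPKM. For 3 libraries against 3 the smallest p this test can give is 0.1, which becomes 0.243 after Benjamini-Hochberg adjustment over the 17 sums and ratios tested, so none could pass. The EIF1 group summed to 1058 ± 15.9 TPM in sgKCNQ3 and 1180 ± 17.4 TPM in NC, a difference of -10.3% without overlap (exact permutation p 0.1). The EIF2 group summed to 937 ± 12.3 TPM in sgKCNQ3 and 972 ± 19.5 TPM in NC (SD, n = 3 each; exact permutation p 0.1), and EIF6, the single gene of its group, was at 711 ± 31.1 TPM in sgKCNQ3 and 761 ± 17.7 TPM in NC (SD, n = 3 each; exact permutation p 0.1), both without overlap. The EIF3 group (3648 ± 18.8 TPM in sgKCNQ3, 3600 ± 75.2 TPM in NC) overlapped between groups, as did the sums of the EIF2B, EIF4 and EIF5 groups (exact permutation p 0.2 to 0.9 over these 4 sums).

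A ratio within a library does not depend on a single scaling factor per library, but it does move with transcript length and GC content. The TPM ratio of EIF4B to EIF4H, the helicase cofactors, was 0.677, 0.683 and 0.681 in sgKCNQ3, against 0.613, 0.588 and 0.587 in NC, a difference of 14.1% without overlap (log2 difference 0.19, exact permutation p 0.1), and 0.14 on the log2 scale in the adjusted fit. The ratio of EIF4EBP2 to EIF4EBP1 was 0.0327, 0.0334 and 0.0307 in sgKCNQ3 and 0.0263, 0.0254 and 0.0281 in NC, a difference of 21.2% without overlap (log2 difference 0.28, exact permutation p 0.1), but 0.02 on the log2 scale in the adjusted fit. The ratio of EIF4EBP1 to its target EIF4E was 10.2, 10.9 and 10.8 in sgKCNQ3 and 11.6, 11.8 and 11.7 in NC, a difference of -9.48%, again without overlap (log2 difference -0.14, exact permutation p 0.1). Its direction turned in the adjusted fit, to 0.15 on the log2 scale, with a transcript of 11523 bases for EIF4E, longer than the deposited TPM took. EIF2B subunits summed to 0.266 ± 0.00646 of the EIF2 subunits in sgKCNQ3 and 0.251 ± 0.00594 in NC (SD, n = 3 each; exact permutation p 0.1), but on CPM the log2 difference was 0.004 in place of 0.09. The ratios EIF1B to EIF1, EIF4A2 to EIF4A1, EIF4G2 to EIF4G1, EIF4G3 to EIF4G1 and EIF5A2 to EIF5A overlapped between groups (exact permutation p 0.2 to 0.9 over these 5 ratios).

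Of 23 regulators of initiation outside the family, 4 were called higher and 4 lower, 17.4% each way beside 14.0% and 15.1% of all genes, shares near the background (median log2 fold change 0.05). PPP1R15A, which brings a phosphatase to eIF2 alpha, was at 348, 367 and 348 CPM in sgKCNQ3, against 483, 527 and 492 CPM in NC (log2 fold change -0.50, SE 0.0391, edgeR adjusted p 6.36e-10). EIF2AK2, the kinase PKR, which phosphorylates eIF2 alpha on double-stranded RNA, rose (0.24, SE 0.0480, edgeR adjusted p 5.35e-04), though not in the adjusted fit (edgeR adjusted p 0.164). DAPK1, a death-associated kinase, rose by 0.32 on the log2 scale (edgeR adjusted p 0.00110), and RPS6KB2, an S6 kinase, had a log2 fold change of -0.20 (edgeR adjusted p 0.00385), lost in the adjusted fit (0.0754). MTOR (0.12), RPTOR (-0.04), LARP1 (0.05) and MKNK2 (0.04), named after their values were seen, which regulate the cap complex or, for LARP1, mRNAs with a pyrimidine start, were not called. The other called regulators, also named after their values were seen, were EIF2AK1 (0.13) and GIGYF2 (0.22), higher, and BZW2 (-0.15) and MLST8 (-0.17), lower. Their edgeR adjusted p were 0.0117, 0.00541, 0.00724 and 0.0289. GIGYF2 and MLST8 lost their calls in the adjusted fit (edgeR adjusted p 0.140 and 0.355), and the groups overlapped for MLST8. The call of MLST8 held in 7 of 19 alternatives. That of EIF2AK1 ended without NC replicate 3 or sgKCNQ3 replicate 1 (edgeR adjusted p at most 0.0592), and that of BZW2 ended on log2(TPM + 1).

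Helpers of initiation outside the family had 2 of 16 called, both higher, 12.5% beside 14.0% of all genes, a share near the background (median log2 fold change 0.04). PABPC1, the poly(A)-binding protein that contacts eIF4G, was at 1980, 2117 and 1986 CPM in sgKCNQ3 and 1889, 1862 and 1918 CPM in NC (log2 fold change 0.10, edgeR adjusted p 0.0314), and its call ended without any 1 of the NC libraries (edgeR adjusted p 0.0768 to 0.110, within 0.00272 to 0.110). The helicase gene DDX3X rose by 0.15 on the log2 scale (edgeR adjusted p 0.00668), but not without NC replicate 2 (edgeR adjusted p 0.0559, within 8.26e-04 to 0.499) or in the adjusted fit (edgeR adjusted p 0.470).

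Of 13 tested elongation and termination factors, 6 were called lower and 1 higher, 46.2% and 7.69% beside 15.1% and 14.0% of all genes (median log2 fold change -0.08). In the adjusted fit 3 of the 13 were called lower and 1 higher, beside 16.1% and 10.5% of all genes. DOHH, the hydroxylase that completes hypusine on eIF5A, was at 15.2, 15.7 and 15.1 CPM in sgKCNQ3, against 19.8, 20.2 and 18.5 CPM in NC (log2 fold change -0.35, SE 0.0766, edgeR adjusted p 0.00131). DHPS, the enzyme before it, was not called (-0.08, edgeR adjusted p 0.249). EEF2K, the kinase that inhibits the elongation factor eEF2, rose by 0.29 on the log2 scale (SE 0.0613, edgeR adjusted p 8.92e-04). ETF1, the release factor that reads stop codons, fell (-0.18, edgeR adjusted p 6.75e-04), and so did EEF1A2 (-0.15, edgeR adjusted p 0.0109), whose call ended without NC replicate 2 or sgKCNQ3 replicate 1 (edgeR adjusted p 0.0780 and 0.0964, within 0.00215 to 0.432). The call of EEF1A2 also ended in the adjusted fit (-0.04, edgeR adjusted p 0.432). Both genes lost their calls on log2(TPM + 1). Of 10 mitochondrial factors, 1 was called, and it was lower, 10% beside 15.1% of all genes. This was MTRF1L, a mitochondrial release factor (-0.14, edgeR adjusted p 0.0366). MTRF1L lost its call without any 1 library other than NC replicate 2 (edgeR adjusted p 0.0683 to 0.127, within 0.00666 to 0.459). The mitochondrial initiation factor genes MTIF2 and MTIF3 had log2 fold changes of 0.02 and -0.01.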

How the data were processed

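RNA-seq of RBE cells was deposited as 1 gene table over 6 libraries, 3 sgKCNQ3 and 3 NC. The authors' read counts are estimated counts, of which 5.52% to 6.33% per library are not whole, and they were rounded for the test. The TPM, FPKM and normalised read count columns (a signal of counts divided by 1 factor per library) were deposited beside them, per the file headers. Group averages, also deposited, include a rounded mean score and were not used. Reads were placed on GRCh38.p13, per the submitters' processing notes. For the aligner, the counter, and strand and multimapping settings, the status is the same: not given in the sources used here.

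Here edgeR 4.0.16 (R 4.3.3) with TMM scaling and the robust quasi-likelihood test was fitted on the 6 libraries over 12564 genes, after filterByExpr with a minimum count of 10 removed 3635. EIF3C and EIF3CL were summed first. Calls used a Benjamini-Hochberg adjusted p under 0.05. CPM were TMM-scaled. The biological coefficient of variation was 3.6%. A chi-square per degree of freedom between libraries was 1.63 to 4.17 within groups and 6.87 to 11.3 between them, above sampling noise in every pair. Sums and ratios of TPM were compared with the exact permutation test. Length and GC content came from GENCODE release 29 (each gene's longest coding transcript) and were available for all 50 members, and their trends were fitted per library with splines of 5 degrees of freedom. Alternatives were other scalings (RLE, upper quartile, library size), DESeq2 1.42.0, limma 3.58.1 (voom, and on log2(TPM + 1) and log2(TPM + 0.1)), other filters, the replicate block, trend removal, separate EIF3C and EIF3CL rows and leaving out each library. The fit was also run on simulated counts, drawn without length or GC trends, and no result here rests on that run. Genes named were KCNQ3, the members, and up to 4 called genes with the smallest p from each list of other translation genes. MTOR, RPTOR, LARP1, MKNK2, EIF2AK1, GIGYF2, BZW2, MLST8, DHPS, MTIF2 and MTIF3 were added after their values were seen. The members and lists were chosen with earlier results of these data known. Python 3.11.15, pandas 2.3.3, scipy 1.17.1 and matplotlib 3.10.9 were used.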

Additional observations from a re-analysis of the deposited data

How the results depend on the processing

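The depth of each library limits the counts of weakly expressed members (EIF5AL1, EIF2S3B, EIF4EBP3 and EIF4E1B), whose folds carry wide errors. Of 183 values of the main comparisons under the alternatives, 159 stayed within tolerance, meaning the same side of the test's threshold for KCNQ3, 1.5 times for counts and 1 SD between replicates for the median, sums and ratios. A value near 0 can turn its sign within that SD, as the log2 ratios of EIF1B to EIF1 (-0.0107 to 0.145) and EIF5A2 to EIF5A (-0.108 to 0.0371) did when libraries were left out. With library size alone, 5 members were called higher and 7 lower, against 3 and 11 as reported, and with limma on log2(TPM + 1) and log2(TPM + 0.1) 7 were called higher and 2 lower in each. Removing length and GC trends left 1 called higher, with and without the replicate block. Leaving out each library in turn gave 2 to 5 called higher (5 without sgKCNQ3 replicate 3) and 7 to 13 lower (7 without NC replicate 3), and 2689 to 3473 genes called, against 3657. The members' median log2 fold change, -0.06 as reported, was -0.0413 with upper quartile scaling, -0.0251 with library size alone and 0.0164 on both TPM scales. KCNQ3 was at -0.15 on log2(TPM + 1) (limma adjusted p 0.151) and -0.22 on log2(TPM + 0.1) (limma adjusted p 0.174), past no threshold. The log2 difference of the members' summed level was -0.01 by TPM but -0.0655 by CPM and -0.0653 by FPKM, and that of the EIF2B to EIF2 ratio was 0.00356 by CPM. In a comparison added after the data were seen, the length and GC adjustment gave log2 ratios of 0.151 for EIF4EBP1 to EIF4E, 0.0229 for EIF4EBP2 to EIF4EBP1, 0.141 for EIF4B to EIF4H, -0.0272 for EIF4A2 to EIF4A1 and -0.257 for EIF5A2 to EIF5A. Among members called in either fit, signs turned for EIF3A, to -0.00361 with trends removed (edgeR adjusted p 0.953) and -0.00453 with the replicate block as well (edgeR adjusted p 0.938), for EIF3F, to -0.112 with trends removed (edgeR adjusted p 0.0221) and -0.113 with the block as well (edgeR adjusted p 0.0213), and for EIF4E, to -0.114 with trends removed (edgeR adjusted p 0.0427). In all, 11 of 49 members changed sign with trends removed, and 16 did on log2(TPM + 1), those 16 called in neither fit. The cause of these shifts was not tested. DESeq2 called 2446 genes, against 3657 by edgeR.

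The groups share replicate numbers, but same-numbered libraries did not deviate together (correlations 0.0202, -0.0942 and 0.0079), and not every library correlated best with its own number, so the numbers were not taken as pairs. With the replicate block, 3148 genes were called, among them 2 members higher and 9 lower. It ended the calls of EIF3A (edgeR adjusted p 0.0732), EIF3D (0.0521), EIF3I (0.0555), MLST8 (0.0640), PABPC1 (0.0635) and MTRF1L (0.0502).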
